A study of Mus musculus with 8 samples.

Results

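The genes described here are those that load and present peptides on MHC class I, with the 3 catalytic subunits of the immunoproteasome. They are B2m, H2-K1, Tap1, Tap2, Tapbp, Psmb8, Psmb9, Psmb10, Erap1 and the transactivator Nlrc5, 10 genes of the 20887 that the array probes named. They were chosen by name, with earlier results of these data known, and each is represented by its brightest probe over all arrays. The members' RNA was followed in mouse peritoneal macrophages without LPS (lipopolysaccharide, a bacterial product sensed by Toll-like receptor 4) and after 1, 4 and 24 h with LPS at 1 μg/ml. The cells came from LysMCre-fur(fl/fl) mice (KO), in which Cre placed in the Lyz2 locus of myeloid cells removes a part of the gene for the proprotein convertase furin, and from wild-type (WT) littermates, all on C57BL/6. They were washed from the peritoneal cavity and stimulated in culture. At each time 2 biological replicates were measured, each on a 2-colour array holding the KO and the WT RNA, with KO in Cy5 in replicate 1 and in Cy3 in replicate 2, so replicate and dye orientation are one factor. The labels do not say which animals a replicate holds, and p-values measure the spread between these samples.

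MHC class I molecules show short peptides from inside the cell to CD8 T cells. The proteasome cuts proteins into peptides, the TAP transporter carries these into the endoplasmic reticulum, Erap1 trims them there, and tapasin holds the empty class I molecule at the transporter until a peptide binds. Interferons replace the 3 constitutive catalytic subunits of the proteasome with immunoproteasome subunits, and Nlrc5 works with factors bound to class I promoters to raise transcription of the class I genes. Macrophages exposed to LPS make type I interferon, which acts back on the same cells.

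The upstream sequences of B2m and H2-K1 are printed because both hold matches to motifs of factors known to act on class I genes. They are the 150 bases before the start in RefSeq on GRCm38.p6, B2m at chr2:122147537-122147686 on the plus strand and H2-K1 at chr17:34000348-34000497 on the minus strand, both read in the direction of transcription. Capitals mark, in B2m, an interferon regulatory factor (IRF) element, a κB element and the X2-Y pair, and in H2-K1 the κB element (2 matches that overlap) and the X2-Y pair.
B2m: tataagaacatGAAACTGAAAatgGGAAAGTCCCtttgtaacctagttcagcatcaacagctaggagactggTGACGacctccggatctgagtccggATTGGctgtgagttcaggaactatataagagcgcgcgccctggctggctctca
H2-K1: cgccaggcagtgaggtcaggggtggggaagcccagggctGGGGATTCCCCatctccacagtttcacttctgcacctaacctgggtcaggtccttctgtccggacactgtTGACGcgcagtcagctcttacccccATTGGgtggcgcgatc
In B2m the IRF element lay 139 to 130 bases before the start, the κB element 126 to 117 and the X2-Y pair 78 to 49. In H2-K1 the κB matches began 111 and 110 bases before the start, and the X2-Y pair lay 41 to 12 bases before it, counted from the upstream one of 2 starts that RefSeq lists for H2-K1. TGACG and ATTGG, the ends of the pair, were 20 bases apart in both promoters.

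Psmb9 and Tap1 lie head to head, and the 225 bases between their starts (GRCm38.p6, chr17:34187331-34187555, plus strand, Psmb9 to the left and Tap1 to the right) are printed because both genes read outward from this stretch and their changes are compared further on.
Psmb9-Tap1: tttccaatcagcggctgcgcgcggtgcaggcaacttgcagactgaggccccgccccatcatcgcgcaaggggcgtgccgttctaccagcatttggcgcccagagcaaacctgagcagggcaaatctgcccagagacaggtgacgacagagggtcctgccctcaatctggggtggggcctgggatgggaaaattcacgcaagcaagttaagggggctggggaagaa
The 3 motifs searched, on both strands, had no match in these 225 bases, which says only that these letters were not there. RefSeq windows of 250 bases before to 50 after the start were listed for 8 of the 10 members, not for Tap2 and Nlrc5. The IRF element (GAAANNGAAA) was found in 3.44% of all 32851 windows and, among the members, in B2m and across the start of Erap1. The κB element was found in 8.46% of windows, and among the members in B2m and H2-K1. The X2-Y pair (TGACG, then ATTGG 15 to 25 bases on) was found in 0.435% of windows, and among the members in B2m and H2-K1. The motifs were chosen after the windows had been read, and a match is a description of letters, not a bound site.

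The arrays measured the members well. Each member's probe was above background in all 16 channels (8 arrays, 2 dyes), no gene spot was saturated, and over all gene probes 45.1% to 51.3% of spots in Cy3 and 43.8% to 48.0% in Cy5 were well above background. Furin had mean log2 KO/WT ratios of -0.72 without LPS, -0.56 at 1 h and -0.64 at 24 h (-0.44 over all times, adjusted p = 0.0220, limma), while at 4 h the ratios were 0.00 and 0.33, so the RNA labelled KO at 4 h did not show less Furin. Where the Furin probe lies relative to the deleted part was not determined. Lyz2, whose locus carries Cre, had a log2 KO/WT ratio of -1.16 over the 4 times (limma, adjusted p = 0.000342), and at 4 h its ratios were -1.04 and -1.13, the direction the labels give. The 5 measured macrophage markers were above background in every channel, and the log2 of their summed intensity went from 18.9 and 19.1 without LPS to 17.4 at 24 h in WT, and from 18.6 to 16.8 in KO. This sum was lower in KO than in WT on 8 of 8 arrays, with differences of -0.34 to -0.75 with Lyz2 and -0.06 to -0.43 without it. Csf1r (-0.40) and Lyz2 itself were called lower over the times, and Adgre1 (0.00), Itgam (0.11) and Mertk (-0.24) were not. The 4 markers of large peritoneal macrophages had a median log2 KO/WT ratio of -0.03 over the times, with 1 called higher in KO. The 4 measured B cell markers were also above background in every channel, so the RNA was not from macrophages alone, and their sum went from 15.97 and 16.35 without LPS to 15.11 and 15.37 at 4 h in WT and from 16.13 and 16.67 to 14.72 and 15.33 in KO. At 24 h in WT the mast cell sum was 11.52 and 10.68 against 13.38 and 12.87 without LPS, and the dendritic cell sum 9.57 and 9.57 against 12.7 and 11.7. A sum follows its brightest markers: of the 5 dendritic cell markers 2 were called lower and 1 higher, with Cd209a at -5.93 and Flt3 at 1.56. The T and NK cell sum was 11.62 and 11.77 against 12.21 and 12.61, and that of mesothelial cells and fibroblasts 11.03 and 11.12 against 9.66 and 9.65, with 11.38 and 11.42 against 9.96 and 9.70 in KO. Of the 7 T and NK cell markers 2 were called lower and 1 higher in WT. Of the 6 mesothelial cell and fibroblast markers 1 was called higher in WT and 2 in KO. Of 4 measured neutrophil markers, S100a9, Retnlg and Mpo were above background in no channel, and S100a8 rose by 3.77 at 24 h in WT and by 4.49 in KO. Fewer cells of a type and less RNA per cell cannot be told apart in such bulk RNA, and the part of these shifts in the results was not tested.

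The RNA of most members was higher after 4 h with LPS. In WT cells 8 of the 10 members rose by 4 h against unstimulated cells, where 15.5% of all 36927 genes and transcripts tested rose (limma separate-channel fit, adjusted p under 0.05). In KO cells 8 members rose at 4 h, with 16.2% of everything tested. The same 8 rose in both, and B2m and H2-K1 did not pass in either. The members' median change at 4 h was 0.90 on the log2 scale in WT and 0.76 in KO, and the median of all genes tested in WT was -0.00. By 24 h 8 members were above the unstimulated level in WT (background 13.5%) and 7 in KO (12.7%), with medians of 0.82 and 0.94. The unstimulated and 1 h arrays lay in one row of the slide and the 4 and 24 h arrays in the other, so comparisons of 4 or 24 h with unstimulated cells cannot be told apart from the slide row. All times were compared with the same unstimulated cells, so hours in culture cannot be told apart from LPS either.

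**Figure D1:**
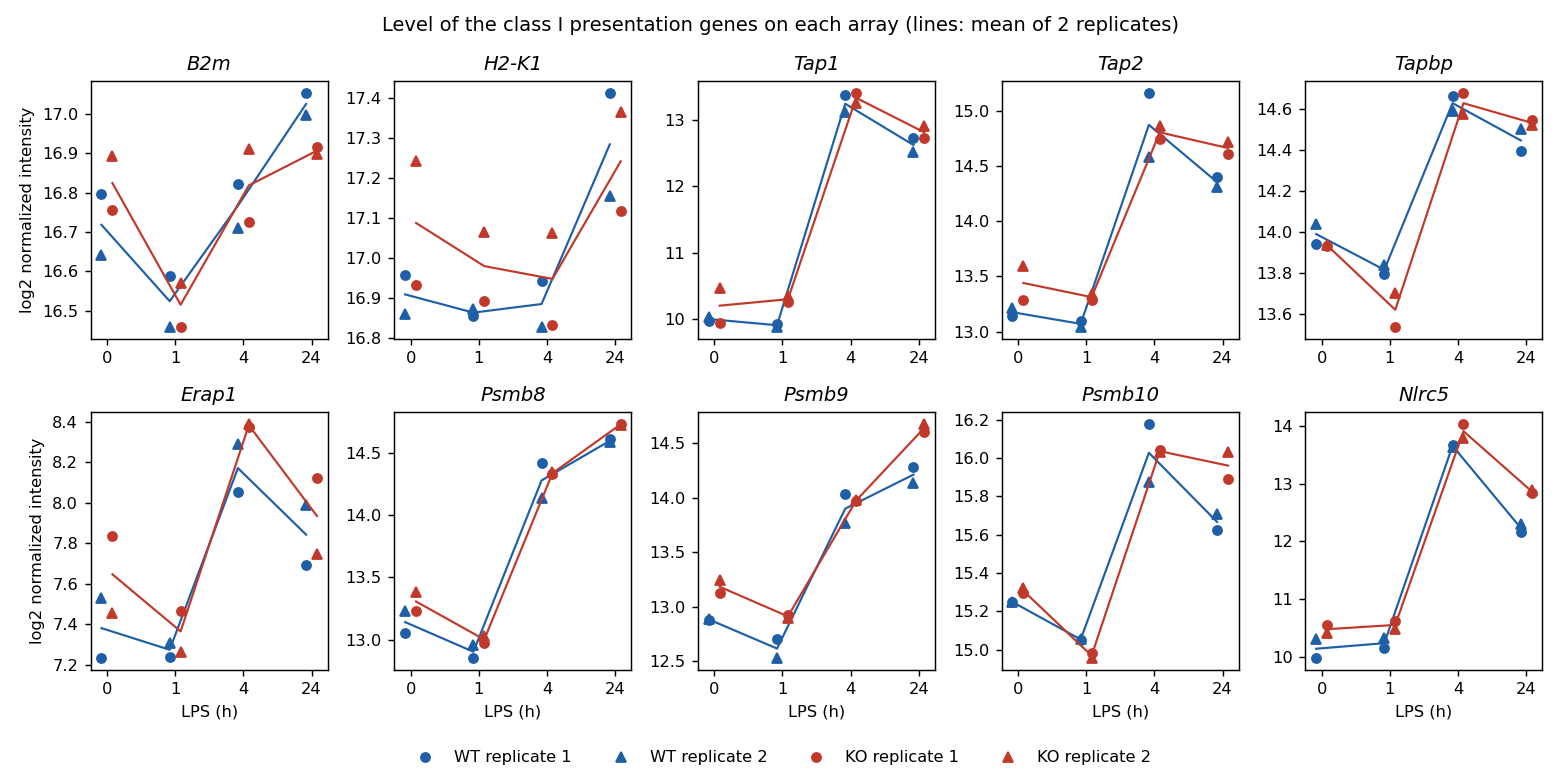
log2 intensity of the 10 members (y axis, own range in each panel, since probes cannot be compared in level) against hours with LPS (x axis) in WT and KO cells. Points are the 2 replicates and lines join their means; Nlrc5 and Tap1 climb more than 3 log2 units by 4 h in both genotypes, while B2m and H2-K1 stay within 1 unit throughout.

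Nlrc5, the class I transactivator, had the largest rise of the members at 4 h on its brighter probe, and Tap1 the largest at 24 h. In WT cells its log2 intensity in replicates 1 and 2 was 9.98 and 10.30 without LPS, 10.15 and 10.32 at 1 h, 13.68 and 13.64 at 4 h and then 12.16 and 12.31 at 24 h. In KO cells it was 10.55 and 10.41, then 10.62 and 10.48, then 14.04 and 13.79, and 12.84 and 12.90. The 4 h and 24 h values lay above every unstimulated and 1 h value and did not overlap each other, whereas the 1 h and unstimulated values overlapped. The WT change was 3.52 on the log2 scale at 4 h (SE 0.13, 11.5-fold, adjusted p = 1.61e-10 in limma) and 2.09 at 24 h (SE 0.13, 4.27-fold), and the KO change was 3.44 and 2.39. A second, dimmer Nlrc5 probe rose less, by 1.66 in WT and 1.66 in KO at 4 h and by 0.63 and 0.86 at 24 h, and it was above background in 14 of 16 channels. From 4 to 24 h Nlrc5 fell by 1.43 on the log2 scale in WT and by 1.04 in KO (adjusted p = 1.48e-06 and 2.44e-05, limma).

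Both subunits of the peptide transporter rose, Tap1 by more than Tap2. Tap1 in WT was 9.96 and 10.03 without LPS, 9.93 and 9.88 at 1 h, 13.37 and 13.12 at 4 h and then 12.73 and 12.52 at 24 h. In KO it was 9.93 and 10.47, then 10.25 and 10.34, then 13.41 and 13.26, and 12.72 and 12.91. The 4 h values were the highest in each genotype, and the unstimulated and 1 h values overlapped in KO and lay close together in WT. The change at 4 h was 3.25 in WT (SE 0.15, 9.52-fold, adjusted p = 1.51e-09 in limma) and 3.14 in KO, and at 24 h 2.63 and 2.62. Tap2 in WT was 13.14 and 13.21 without LPS, 13.10 and 13.04 at 1 h, 15.16 and 14.58 at 4 h and then 14.40 and 14.31 at 24 h. In KO it was 13.28 and 13.60, then 13.29 and 13.34, then 14.75 and 14.86, and 14.61 and 14.71. Its change at 4 h was 1.70 in WT (SE 0.16, adjusted p = 1.02e-06 in limma) and 1.36 in KO, and at 24 h 1.18 and 1.22. The WT 4 h replicates of Tap2 lay farther apart than those of its other groups.

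Tapasin (Tapbp), the bridge between transporter and class I molecule, and Erap1, the trimming peptidase, rose by less. Tapbp went from 13.94 and 14.04 without LPS to 13.79 and 13.84 at 1 h, 14.66 and 14.59 at 4 h and then 14.39 and 14.50 at 24 h in WT, and from 13.93 and 13.94 to 13.54 and 13.70, 14.68 and 14.58, and 14.54 and 14.52 in KO. Its 4 and 24 h values lay above all values of the earlier times in both genotypes. The change at 4 h was 0.64 in WT and 0.69 in KO (SE 0.09). Erap1 was 7.23 and 7.53 without LPS, 7.24 and 7.31 at 1 h, 8.05 and 8.29 at 4 h and then 7.70 and 7.99 at 24 h in WT, and 7.84 and 7.46, 7.47 and 7.26, 8.38 and 8.39, and 8.12 and 7.75 in KO. It rose at 4 h, by 0.79 in WT and 0.74 in KO (SE 0.17), and its unstimulated and 24 h values overlapped in KO but not in WT. At 24 h the WT change of 0.46 did not pass (adjusted p = 0.0603, limma), but did with replicate as a block (0.00433), with processed signals, with a stricter filter on dim probes, and without replicate 2 of unstimulated cells or replicate 1 at 24 h (0.0336 and 0.0353).

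**Figure D2:**
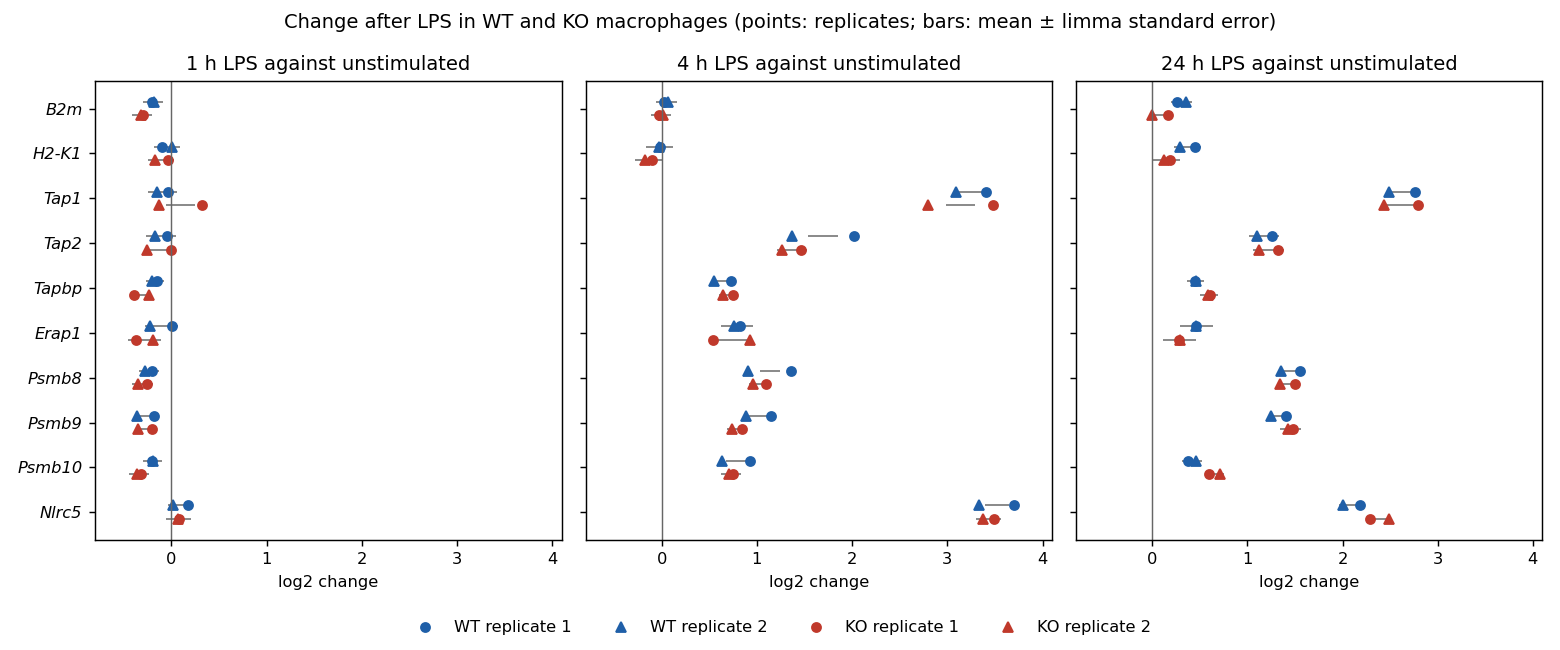
log2 change from unstimulated cells (x axis) of each member (y axis) at 1, 4 and 24 h with LPS, by replicate (circle, replicate 1; triangle, replicate 2), WT in blue and KO in red, with grey bars for the mean ± limma SE. The 1 h means lie between -0.34 and 0.10, and at 4 h the genes spread from B2m and H2-K1 near 0 to Nlrc5 and Tap1 above 3.

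The immunoproteasome subunits rose together at 4 h and then parted. Psmb8 in WT was 13.05 and 13.23 without LPS, 12.85 and 12.95 at 1 h, 14.42 and 14.14 at 4 h and then 14.61 and 14.58 at 24 h, and in KO 13.23 and 13.38, 12.98 and 13.03, 14.33 and 14.34, and 14.73 and 14.72. Psmb9 in WT was 12.88 and 12.88, 12.70 and 12.53, 14.03 and 13.76, and 14.28 and 14.13, and in KO 13.12 and 13.24, 12.92 and 12.90, 13.96 and 13.98, and 14.60 and 14.68. For both genes every 24 h value was above every 4 h value of its genotype. Psmb8 rose by 1.14 at 4 h and 1.45 at 24 h in WT (SE 0.11) and by 1.03 and 1.42 in KO. Psmb9 rose by 1.02 and 1.33 in WT (SE 0.11) and by 0.79 and 1.46 in KO. Psmb10 was 15.25 and 15.25 without LPS, 15.05 and 15.05 at 1 h, 16.18 and 15.88 at 4 h and then 15.62 and 15.71 at 24 h in WT, and 15.29 and 15.32, 14.98 and 14.96, 16.04 and 16.03, and 15.89 and 16.03 in KO. Its 4 h and 24 h values did not overlap in WT and met at 16.03 in KO. Psmb10 rose by 0.78 and 0.42 in WT (SE 0.10) and by 0.73 and 0.65 in KO, and the WT call at 24 h was lost without replicate 2 of that time (adjusted p = 0.0586, limma).

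Each immunoproteasome subunit takes the place of a constitutive one in the core particle, Psmb8 of Psmb5, Psmb9 of Psmb6 and Psmb10 of Psmb7. Of the constitutive 3, Psmb6 and Psmb7 rose at 4 h in WT, by 0.43 and 0.49, and Psmb7 alone was higher at 24 h, by 0.83 in WT and 0.74 in KO. Psmb5 had changes of -0.21 at 4 h and 0.46 at 24 h in WT (SE 0.23) and passed at neither time, while a second, dimmer Psmb5 probe gave -0.04 and 0.64. So in WT the change of Psmb9 at 24 h was 1.33 against 0.04 for Psmb6, while that of Psmb10 was 0.42 against 0.83 for Psmb7. These are changes of separate probes and no test of the difference between subunits was made.

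**Figure D3:**
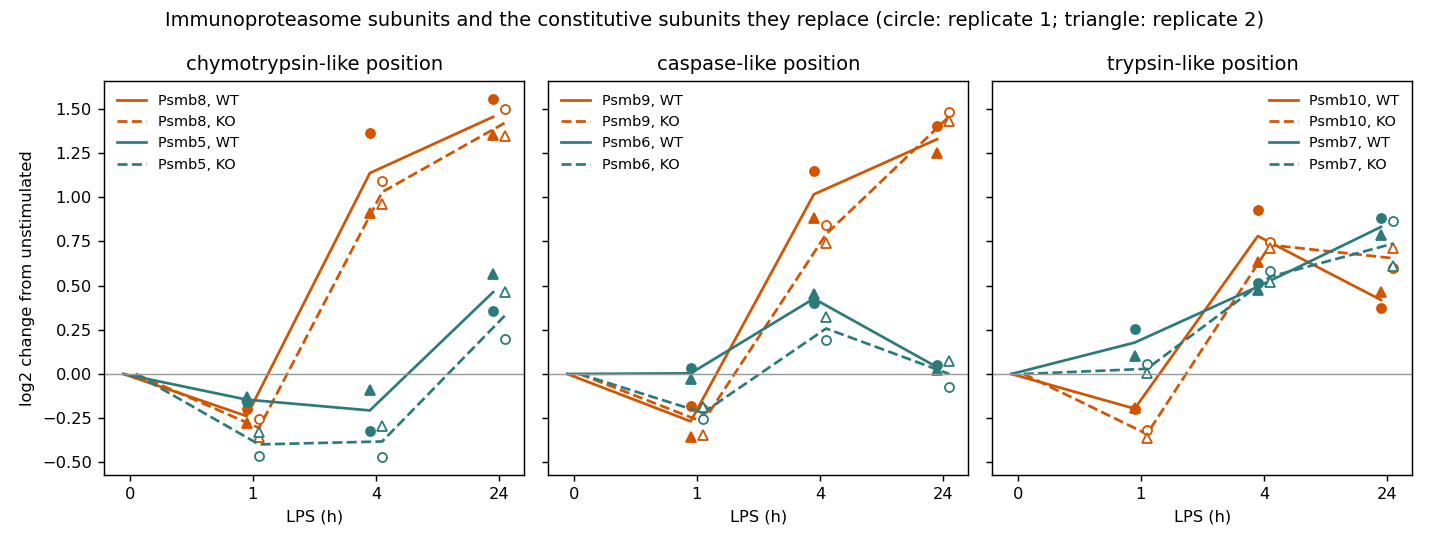
log2 change from unstimulated cells (y axis) against hours with LPS (x axis) for the 3 pairs of catalytic subunits, immunoproteasome and constitutive, in WT (solid, filled) and KO (dashed, open); the start is set at 0. Psmb8 and Psmb9 climb past their partners to 24 h, while Psmb10 turns down after 4 h in WT.

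The class I molecule itself moved little. B2m, the invariant chain, was 16.80 and 16.64 without LPS, 16.59 and 16.46 at 1 h, 16.82 and 16.71 at 4 h and then 17.05 and 17.00 at 24 h in WT. In KO it was 16.75 and 16.89, 16.46 and 16.57, 16.73 and 16.91, and 16.92 and 16.90. The WT 24 h values stood above the rest of that genotype, and the KO values at 0, 4 and 24 h overlapped or nearly met. The WT change at 24 h was 0.31 (SE 0.11, adjusted p = 0.0430 in limma), a call lost when any of 6 of the 8 arrays was left out, and the KO change was 0.08. H2-K1, a class I heavy chain, was 16.96 and 16.86, 16.86 and 16.87, 16.94 and 16.83, and 17.41 and 17.15 in WT, and 16.93 and 17.24, 16.89 and 17.07, 16.83 and 17.06, and 17.12 and 17.36 in KO. Only its WT 24 h values were apart from the other times. Its change at 24 h was 0.37 in WT (SE 0.14, adjusted p = 0.0614, or 0.00507 with replicate as a block, limma) and 0.15 in KO. A second H2-K1 probe gave 0.17 at 24 h in WT. Class I heavy chains resemble one another in sequence to varying degrees, and which of them a probe reads was not determined.

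Between 4 and 24 h the members went different ways. In WT 3 rose over this interval, H2-K1, Psmb8 and Psmb9 (15.1% of all tested rose), with changes of 0.40, 0.32 and 0.31. Another 4 fell, Tap1, Tap2, Psmb10 and Nlrc5 (14.6% of all fell), with changes of -0.62, -0.52, -0.36 and -1.43. In KO 2 rose, Psmb8 by 0.39 and Psmb9 by 0.67 (15.6% of all), and 2 fell, Tap1 and Nlrc5 with changes of -0.52 and -1.04 (15.1% of all). With replicate as a block 9 members passed in WT and 6 in KO (12863 and 13185 of all 36927 rows), with B2m (adjusted p = 0.0330) and Erap1 (0.0326) added in WT and H2-K1 (0.0217) and Erap1 (0.00519) in KO, limma. These 2 times share a slide row. The mean level was highest at 4 h for 6 members (Nlrc5, Tap1, Tap2, Psmb10, Erap1, Tapbp) and at 24 h for the other 4, in both genotypes. With single arrays left out, some of the WT calls were lost. Without replicate 1 at 24 h the WT changes were 0.27 for H2-K1, 0.31 for Psmb8, 0.24 for Psmb9, -0.32 for Psmb10 and -0.56 for Tap2. Such fits leave 1 array in a group. Calls over all rows in them are not reported here, so the losses are not read as particular to the members. In KO the rise of Psmb8 was lost without either 24 h array (adjusted p = 0.0698 and 0.0678, limma), and the fall of Tap1 without replicate 1 at 4 h or at 24 h (0.120 and 0.140).

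At 1 h no member passed in WT or KO, where 8.5% and 7.44% of all genes tested changed in either direction. The changes ran from -0.27 to 0.10 in WT and from -0.34 to 0.10 in KO. In WT 7 of the 10 members were below 0 in both replicates, and in KO 7, but not the same 7. Tap1 and Tap2 were so only in WT, and H2-K1 and Erap1 only in KO. With an unadjusted p under 0.05, 2 members in WT and 5 in KO passed, where 18.2% and 17.9% of all genes did. With replicate as a block, B2m, Tapbp and Psmb10 were lower at 1 h in KO (adjusted p = 0.0344, 0.0435 and 0.0468, limma; 4349 of all 36927 rows passed in that fit), with changes of -0.31, -0.32 and -0.34. For 9 members in WT and 7 in KO the 1 h mean was the lowest of the 4 times.

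Whether loss of furin moved these genes was read from the log2 KO/WT ratio on each array. No member passed at any single time, where the share of all genes called was 0% without LPS, 0% at 1 h, 0.0135% at 4 h and 0.0244% at 24 h (limma). At an unadjusted p under 0.05, 2, 3, 0 and 3 members passed at these times, where 5.78%, 5.48%, 4.3% and 3.43% of all genes did, and a plain t-test with Benjamini-Hochberg adjustment called 0 at each. Over the 4 times together no member passed either, where 0.566% of all genes did, with 5 members at an unadjusted p under 0.05, where 3937 of all 36927 rows passed. The members' median ratio was 0.14 over the times, with 9 of the 10 above 0, and the median of all genes was 0.00. On the same 8 arrays the macrophage marker sum was lower in KO, with or without Lyz2, and the 5 mast cell markers, none of them called, had a median log2 KO/WT ratio of 0.47 over the times. The median was 0.14 for 4 B cell markers and 0.18 for 7 T and NK cell markers, none called, beside 0.14 for the members. Their part in the members' ratios was not tested.

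On its brighter probe Nlrc5 had the highest mean ratio of the members over the times, though Tap1 was higher at 1 h (0.39 against 0.32). The Nlrc5 ratio in replicates 1 and 2 was 0.57 and 0.11 without LPS, 0.47 and 0.16 at 1 h, 0.36 and 0.15 at 4 h and then 0.68 and 0.59 at 24 h, above 0 on 8 of 8 arrays and larger in replicate 1 at each time. The mean was 0.39 (SE 0.07, adjusted p = 0.0515 in limma, or 0.000963 with replicate as a block), and at 24 h 0.64 (adjusted p = 0.341, or 0.0101 with the block). The dimmer Nlrc5 probe had a mean ratio of 0.03, with 0.14 and 0.19 at 24 h, so the probes disagree. Taking the mean of both probes gave 0.21 (adjusted p = 0.111, limma), below the means of Psmb9 and Tap1.

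Psmb9 was above 0 on 7 of 8 arrays, with a mean ratio of 0.27 (SE 0.05, adjusted p = 0.0733, or 0.00384 with the block, limma) and its highest single ratio at 0.54. Tap1, on the far side of the 225 bases it shares with Psmb9, was above 0 on 6 arrays with a mean of 0.22 (SE 0.07, adjusted p = 0.243, or 0.0212 with the block, limma). Tap2 and Psmb8 were above 0 on 7 arrays, with means of 0.19 and 0.11. B2m and Tapbp were above 0 on 3 arrays, with means of 0.01 and -0.04. H2-K1, Psmb10 and Erap1 were above 0 on 5 arrays, and 3 members changed sign between replicate 1 and replicate 2, where the dyes were exchanged: H2-K1 (-0.10 and 0.25), B2m (-0.10 and 0.12) and Erap1 (0.40 and -0.07). Without the 4 h arrays, where Furin was not lower in the RNA labelled KO, no member passed, and the means were 0.43 for Nlrc5, 0.34 for Psmb9 and 0.26 for Tap1.

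**Figure D4:**
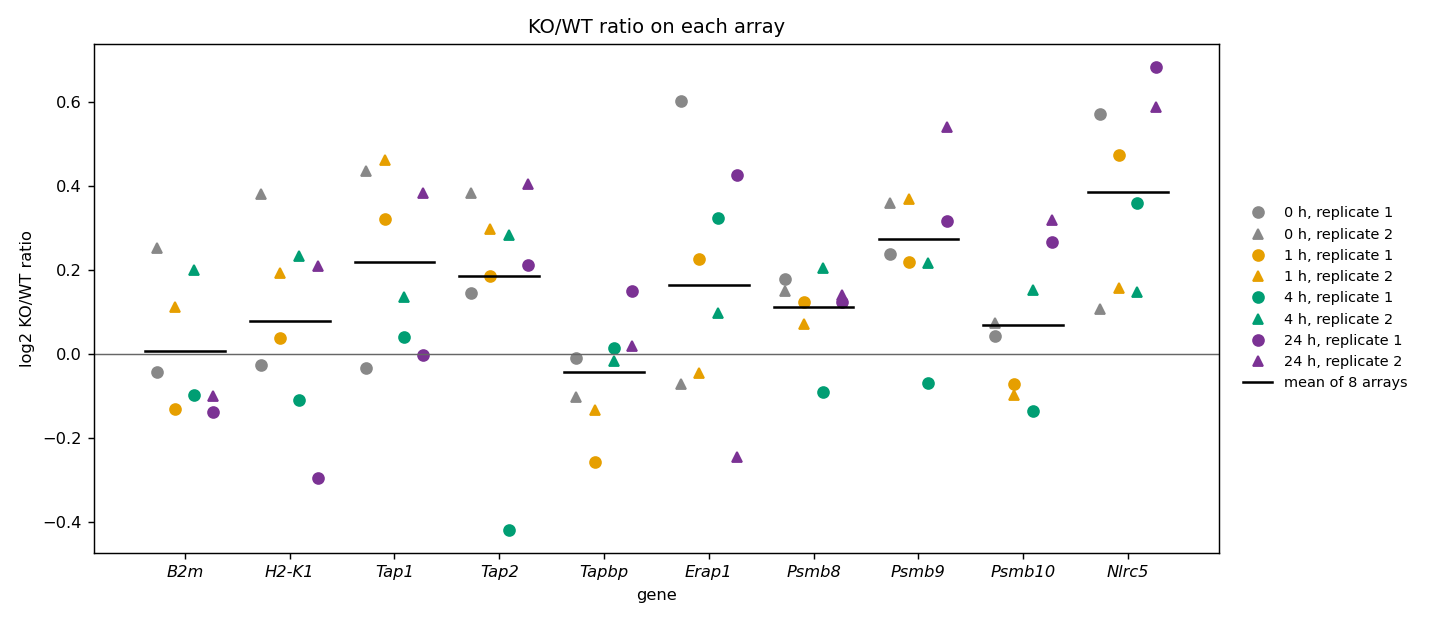
log2 KO/WT ratio (y axis) of each member (x axis) on the 8 arrays, marked by time and replicate, with a black bar at the mean of the 8. All 8 Nlrc5 ratios lie between 0.11 and 0.68, while those of B2m and Tapbp lie on both sides of 0.

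The response to LPS did not pass as different between genotypes for any member at 1, 4 or 24 h, and 0%, 0% and 0% of all genes did (limma interaction; at an unadjusted p under 0.05, 0 members and 1.39%, 2.9% and 3.33% of all genes). The differences of the log2 responses, KO minus WT, ran from -0.17 to 0.19 at 1 h, from -0.33 (Tap2, SE 0.22) to 0.05 at 4 h, and from -0.22 (B2m, SE 0.17) to 0.30 (Nlrc5, SE 0.19) at 24 h.

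Genes that act in the same pathway were read from lists made by role, with earlier results of these data known. Their counts can be set beside the shares of all genes that rose, given above. The shares that fell were 19.3% at 4 h and 17% at 24 h in WT and 19.7% and 15.9% in KO. Of the 11 other subunits of the 20S core, 7 rose and 2 fell at 4 h in WT, and 9 rose at 24 h, with a median of 0.59. In KO 7 rose and 3 fell at 4 h and 9 rose at 24 h. Psma6 rose by 0.97 and Psma5 by 0.88 at 24 h in WT. The activators and assembly factors gave 4 of 8 higher at 4 h and 5 at 24 h in WT, and 4 at both times in KO. Psme1 and Psme2, which form the interferon-inducible PA28 cap of the proteasome, rose by 1.00 and 1.44 at 4 h in WT and by 0.92 and 1.37 in KO. Psme3, the related nuclear cap, rose by 2.12 at 4 h and 3.27 at 24 h in WT (SE 0.37).

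Among the chaperones of class I loading, Calr (calreticulin) fell by 0.50 at 4 h and rose by 1.68 at 24 h in WT, and in KO its changes were -0.43 and 1.19. Pdia3, the thiol oxidoreductase joined to tapasin, changed by -0.33 and 1.51 in WT and by -0.35 and 0.89 in KO. At 24 h the log2 KO/WT ratio of Pdia3 was -0.71 (adjusted p = 0.128, or 0.0101 with the block, limma) and that of Calr -0.47 (adjusted p = 0.579, or 0.0480 with the block). Tapbpl, a tapasin relative that edits peptides, rose by 1.04 and 0.52 in WT. Of the 5 genes of this list, 1 rose and 3 fell at 4 h in WT and 3 rose at 24 h; in KO 1 rose and 3 fell, then 3 rose and 1 fell.

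Among 11 measured class I heavy chains other than H2-K1, 2 rose and 3 fell at 4 h and 4 rose at 24 h, in both genotypes. H2-T10 and H2-T24, non-classical chains, rose by 1.31 and 1.56 at 4 h and by 3.15 and 2.76 at 24 h in WT, and by 1.19 and 1.10 at 4 h and 2.96 and 2.48 at 24 h in KO. H2-M3, which presents formylated peptides, had a change of 0.15 at 4 h and rose by 1.33 at 24 h in WT. H2-Q10 rose by 0.59 at 24 h in WT, but a second probe of it gave -0.22. Of 6 measured cytosolic and other peptidases, 3 rose and 1 fell at 4 h and 3 rose and 2 fell at 24 h in WT, and 3 rose at each time in KO. Lnpep, an aminopeptidase of endosomes, rose by 1.33 and 1.51, and Thop1, which degrades peptides in the cytosol, by 1.44 and 0.94 in WT. Some of these heavy chains may share probe targets, which was not determined, as said of H2-K1.

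Of 11 transcription factors of class I genes, 6 rose and 3 fell at 4 h and 3 rose and 4 fell at 24 h in WT, and 6 rose and 4 fell, then 2 rose and 2 fell, in KO. Irf1, an activator of Tap1 and Psmb9, was already higher at 1 h in WT, by 1.99, while no member had passed at that time. It rose by 1.89 at 4 h and fell by 0.85 at 24 h in WT (SE 0.14), and in KO its changes were 1.59 and 0.09. A second, dimmer Irf1 probe gave 1.04 at 4 h in WT and, at 24 h, 0.08 in WT and 0.21 in KO, so the probes disagree at 24 h. On the brighter probe its log2 intensity at 24 h was 13.44 and 13.58 in WT and 14.45 and 14.50 in KO, so the genotypes did not overlap at that time. The log2 KO/WT ratio of Irf1 at 24 h was 0.97 (adjusted p = 0.0908, or 0.00487 with the block, limma), and the difference of its 24 h response was 0.94 (adjusted p = 0.556, or 0.0572 with the block). Irf2, a repressor at some interferon elements, was the only gene of these pathway lists to pass over the 4 times between genotypes, with a ratio of 0.29 (SE 0.05, adjusted p = 0.0468, limma).

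The members' mean course over the 16 channels was most like those of Phf11a, Parp10, Phf11b, Xaf1 and Ifi209, with Pearson r of 0.995, 0.994, 0.993, 0.993 and 0.992. Members were not scaled, so this course followed most the members that varied most, Nlrc5 and Tap1 (standard deviation 1.54 and 1.53). Its r was 0.68 with B2m and 0.35 with H2-K1. Phf11a rose by 4.39 at 4 h and 3.51 at 24 h in WT, and Xaf1 by 4.84 and 4.36. Between pairs of members r ran from -0.01 (H2-K1 with Erap1) to 0.99 (Tap1 with Tap2), with a median of 0.86 over 45 pairs. The channels share arrays and times, and these r are descriptions.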

How the data were processed

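Peritoneal macrophage RNA was amplified and hybridised by the authors to 8 Agilent 2-colour arrays on 1 slide. The spot intensity deposited by the authors (median signal and background) came from Agilent Feature Extraction 10.7.3, and the deposited log2 ratios, normalized by the authors with limma, served as an alternative. Times were taken from sample titles; the labels' growth text names 4 h for every sample. Members, lists and motifs were chosen with earlier results of these data known.

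Intensities were background-corrected (normexp, offset 50) and normalized by loess within and quantiles between arrays, with control spots at weight 0 and the 1752 outlier spots left out. Replicate spots were averaged per probe, and 1 probe stood for each gene, the brightest. RefSeq named 27509 of 55681 gene probes (20887 genes), and unnamed probes gave 1 row per identifier. Of 37018 rows, 36927 passed a mean log2 intensity of 6. Genotype was tested on log2 KO/WT ratios (lmFit, eBayes, 4 residual degrees of freedom), and LPS by the separate-channel fit (lmscFit, 8 degrees, within-spot correlation 0.116 estimated on 5000 genes) in limma 3.58.1 under R 4.3.3, with Benjamini-Hochberg adjustment over all rows and a threshold of 0.05. Named genes were the members, Furin, Lyz2, members of lists made by role and the genes of most similar course. Values of some listed genes are not reported here.

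Replicate numbers pair the samples: deviations correlated over every pair of times (6 pairs, r from 0.475 to 0.679 for ratios, 0.339 to 0.565 for WT and 0.214 to 0.336 for KO levels), and the number is also the dye orientation, so a fit with the replicate as a block was an alternative. The number of arrays, 2 per group, limits the precision.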

Additional observations from a re-analysis of the deposited data

Results flagged for a closer look

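The log2 KO/WT ratio of Psmb10 was below 0 on both arrays at 1 h (-0.07 and -0.10) and above 0 on both at 24 h (0.27 and 0.32), a difference of 0.38. The same held for Tapbp, at -0.26 and -0.13 at 1 h and 0.15 and 0.02 at 24 h, a difference of 0.28. The difference between these times was not tested for either gene. Groups of 2 arrays are too small to look for single arrays that stand apart.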

How the results depend on the processing

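Across the alternatives run (background correction, normalization, filters, probe choice, outlier spots, replicate block, within-spot correlation, each array left out, the deposited ratios and the methods' t-test) no member's change reversed a called direction. Of the member values, 3599 kept their direction and side of the threshold or, with no call, moved by no more than the replicate spread, 210 with no call moved by more, and 146 lost and 55 gained a call; the cause was not tested. The replicate block (the paired fit) called 3 members in place of 0 at 1 h in KO, 1 at 24 h (Nlrc5) and 3 over all times (Nlrc5, Psmb9, Tap1) for KO against WT; it called 10 in place of 8 at 24 h in WT (12898 of all rows in place of 11230), and no response difference. At 1 h in KO processed signals, the filter on probes well above background and the mean over probes each called 2 members (2974, 3189 and 2778 of all rows) and no background subtraction called 1 (2866), against 0 (2749). For KO against WT over all times Aquantile, loess only and the deposited ratios each called 1 member, Nlrc5 (173, 173 and 175 of all rows against 209), as did each unnamed probe on its own (266), chosen after seeing the data. Its limma adjusted p ran from 0.000963 to 0.168 over all alternatives. Without the 4 h arrays, also chosen after seeing the data, 0 were called.

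With Benjamini-Hochberg adjustment the methods' t-test called 2 members at 4 h and 0 at 24 h in WT, 1 and 1 in KO, and 0 for 24 against 4 h in both. Unadjusted it called 1 at 1 h in WT, 2 at 1 h in KO, 1 for 24 against 4 h in WT, and 2, 3 and 4 for KO against WT at 0, 1 and 24 h. The next paragraph gives the counts of all rows for these tests. For the unadjusted test of 24 against 4 h that count is not reported here, so its member count has no background. With single arrays left out the counts ran from 2 to 6 for 24 against 4 h in WT and from 0 to 1 at 1 h in KO (1, Psmb10, without replicate 1 or 2 at 4 h).

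Over all genes and transcripts the block called 390, 211, 209 and 216 for KO against WT at 0, 1, 4 and 24 h, 2212 over all times, 12 and 78 response differences at 4 and 24 h, and 4349 at 1 h in KO. Over all times, processed signals called 128, the mean over probes 129 and the set without the 4 h arrays 82, against 209. The t-test with adjustment called 0, 1846 and 17 in WT and 3, 779 and 630 in KO at 1, 4 and 24 h, and 12 and 1 for 24 against 4 h. Unadjusted it called 4851 and 5055 at 1 h in WT and KO, and 1692, 1754, 1127 and 1514 for KO against WT. Other settings called 1 to 14 at single times for KO against WT.

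Processed signals moved the median of all genes to -0.10 and -0.12 at 4 and 24 h in WT.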
